A study of Mus musculus with 4 samples.

Results

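The genes of the cytosolic ribosome were examined in mouse neural stem cells, chosen by symbol among the protein-coding genes of the annotation. The set was Rpsa, Rplp0, Rplp1, Rplp2 and every symbol made of Rpl or Rps, a number and optional letters, without the Rps6 kinases. Symbols with a further number, such as Rps3a1, Rpl22l1 and Rpl7l1, were left out. The annotation held 82 genes of the set, and 79 of them had entries in the table, out of 14949 genes in all. The large subunit had 47 of these genes and the small subunit 32. All 79 passed the filter on low counts that left 9882 genes for comparison. Rpl3l, Rpl10l and Rpl39l, paralogs known mainly from muscle or testis, had no entry and are listed at 0. The 79 genes were split over 801 isoforms, between 1 and 63 per gene with a median of 9. Of these isoforms, 351 were plain Ensembl transcripts, 46 were variants of one, and 404 were named by a sequencing read.

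The ribosome is built from ribosomal RNA and ribosomal proteins, which form a small subunit that decodes mRNA and a large subunit that joins amino acids. The proteins are needed in fixed proportions, and their short, abundant mRNAs share a tract of pyrimidines at the 5′ end (the TOP motif) through which growth signals control their translation. When assembly is disturbed, RPL5 and RPL11, bound to 5S ribosomal RNA, can bind MDM2 and so stabilise p53. Ribosomal protein genes are also known for their many processed pseudogenes, copies of the spliced mRNA that were inserted back into the genome.

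Primary neural stem cells were grown with bFGF and EGF from the neocortex of embryos with floxed alleles. They were given lipid nanoparticles (LNP) for 3 days, with or without mRNA for the Cre recombinase, which removes the floxed exons. The control was Tut1f/f with LNP and no Cre mRNA. Cre mRNA was given to cells of 3 genotypes, Tut1f/f (named Tut1f/f;Cre here), Trp53f/f (p53f/f in the labels, Trp53f/f;Cre here) and the double-floxed cells labelled Tut1f/f;Trp53f/f;Cre. Values of the 4 libraries are always given in that order, control first, and ratios to the control, on the log2 scale throughout, in the order of the 3 Cre libraries. Tut1 encodes the enzyme that adds uridines to U6 snRNA of the spliceosome, and Trp53 encodes p53; the study asked which splicing events depend on Tut1, with Trp53 removed to limit effects of cell death. Every group was 1 library of Nanopore cDNA-PCR reads, so no difference has a replicate check, the number of embryos behind a library was not given, and Cre mRNA cannot be told apart from whatever else set the single control library apart. Fewer cells of a type and less RNA per cell cannot be told apart in bulk RNA. The intervals given are 95% intervals for counting error only, since reads amplified by PCR are not independent molecules.

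The libraries held between 3936827 and 5125888 reads, of which 2863392 to 4244467 named a gene. Tut1 had 37, 11, 14 and 27 reads. Cre removes exon 2, which the study used to measure the deletion, so these few reads over the whole gene check nothing; they do not follow the labels, which are used here as given. Trp53 had 175, 67, 10 and 19 reads. The neural stem cell markers Nes, Sox2, Pax6, Vim, Fabp7, Hes1 and Sox9 were detected in every library, and Msi1 had no entry. Their sum of 11238 to 13009 CPM (counts scaled by the gene reads of the library and its TMM factor) was mostly Fabp7, at 9912, 9919, 9382 and 11382 CPM, while others differed between the control and the Cre libraries: Hes1 was at log2 ratios of 1.74, 1.61 and 1.60, Nes at 1.13, 1.05 and 0.51, Sox9 at 1.23, 1.28 and 0.87, and Vim at -0.74, -1.03 and -1.02. Endothelial markers were at 0 in all libraries, 4 of 5 microglial markers and at least 4 of 5 fibroblast markers were at 0 in each, and the summed markers of neurons lay between 73.5 and 89.8 CPM. Summed markers of the oligodendrocyte lineage were at 354, 585, 676 and 475 CPM, lowest in the control like the ribosomal share below, with Olig2 at 998, 1391, 1953 and 1073 reads. Astrocyte markers were at 674, 566, 505 and 627 CPM, with 2 of the 4 markers tested above and 2 below the control in each Cre library: Aldh1l1 had 187, 16, 11 and 71 reads, Aldoc 1336, 693, 724 and 848, Slc1a3 1149, 984, 1010 and 909 (288.9, 324.9, 289.9 and 308.1 CPM) and S100b only 10, 16, 10 and 21 reads. Gfap had no entry. The part of these markers in the results was not tested. A gene annotated as ribosomal RNA, CT010467.1, had its highest share in the control, 18.7%, followed by 9.75%, 8.91% and 5.46%.

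Several members share nearly their whole coding sequence with processed pseudogenes that took reads of their own. The sequences below are from GRCm38, written 5′ to 3′ on the gene's strand, with the base that differs in capitals, to show how little the aligned parts differ. Bases outside the aligned parts, mostly in the untranslated regions, are not compared here. Rpl3, a protein next to the peptidyl transferase centre, differed from the pseudogene Rpl3-ps1 at 2 bases over 1210 aligned bases, C57A and T786C, with positions counted from the A of the start codon and the gene's base first. The Rpl3 windows lie at chr15:80082517-80082541 and chr15:80079741-80079765 (minus strand, coding exons), and the pseudogene's at chrX:13202616-13202640 and chrX:13203345-13203369 (plus strand).
Rpl3, base 57: cttcctgcctcgCaagcgcagcagc
Rpl3-ps1, base 57: cttcctgcctcgAaagcgcagcagc
Rpl3, base 786: ccctgcccgtgtTgccttctctgtg
Rpl3-ps1, base 786: ccctgcccgtgtCgccttctctgtg
Rpl6, a large subunit protein, differed from the pseudogene Gm6136 at 4 bases over 891: G353A, C408T, G489A and C657T. The windows of C408T (chr5:121206702-121206726, plus strand, and chr1:86909264-86909288, minus strand) are shown.
Rpl6, base 408: gctgctgagccaCggcaagaagccc
Gm6136, base 408: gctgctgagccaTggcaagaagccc
Rpl37a, a zinc finger protein of the large subunit, differed from Gm4149 at 1 base over 276, T198C (chr1:72712195-72712219 and chr13:75645081-75645105, both plus strand).
Rpl37a, base 198: aacagtggccggTggggcctggacc
Gm4149, base 198: aacagtggccggCggggcctggacc
Rps29 and its pseudogene Gm14303 (chr2:172509521-172509691, minus strand) were identical over all 171 bases of the coding sequence, and Rps13 and Rps13-ps2 over 453 bases.

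The mRNA ends carry the other shared sequence. RefSeq promoters (GRCm38.p6) were found by symbol for 59 of the 79 genes, with 70 start sites. A run that begins with C and goes on with at least 4 bases each C or T, read on the gene's strand, stood exactly at a start site in 14 of the 59 genes (23.7%), against 3.01% of the 27025 genes in the promoter table. Within 10 bases of a start it stood in 36 (61.0%), against 34.4% of all genes. It stood at a start in 7 of 35 large and 7 of 24 small subunit genes. A match is a description of the letters at an annotated start and no measurement of translation. The windows of 30 bases below show genes described later, with the run in capitals, starting 10 bases before the run.
Rps6 (chr4:86857348-86857377, minus strand): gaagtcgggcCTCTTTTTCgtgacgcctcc
Rps10 (chr17:27635225-27635254, minus strand): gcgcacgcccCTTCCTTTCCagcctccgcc
Rps27 (chr3:90213629-90213658, minus strand): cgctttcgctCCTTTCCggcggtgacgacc
Rpl28 (chr7:4792955-4792984, plus strand): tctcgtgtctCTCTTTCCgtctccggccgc
Rpl35 (chr2:39005112-39005141, minus strand): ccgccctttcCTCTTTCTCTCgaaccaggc
Rplp2 (chr7:141447641-141447670, plus strand): cagcgtcttcCTTTCgccgccggacgccgc

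The cytosolic ribosomal protein genes together made up 13.8% of the gene reads in the control, then 16.8%, 17.8% and 17.9% in the libraries that had Cre mRNA, with Wilson intervals no wider than 0.1 points. The control library was the lowest. The size of the gap rested on the denominator: with the ribosomal RNA gene left out the shares were 16.9%, 18.6%, 19.5% and 19.0%, and over all reads, with those that name no gene, 11.4%, 11.7%, 12.6% and 13.04%. Between 17.2% and 30.2% of reads named no gene, the lowest share of these also being in the control; the part of the denominators in the gap was not tested further. With the matched pseudogenes added, the shares were 17.5%, 21.6%, 23.2% and 22.5%.

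**Figure D1:**
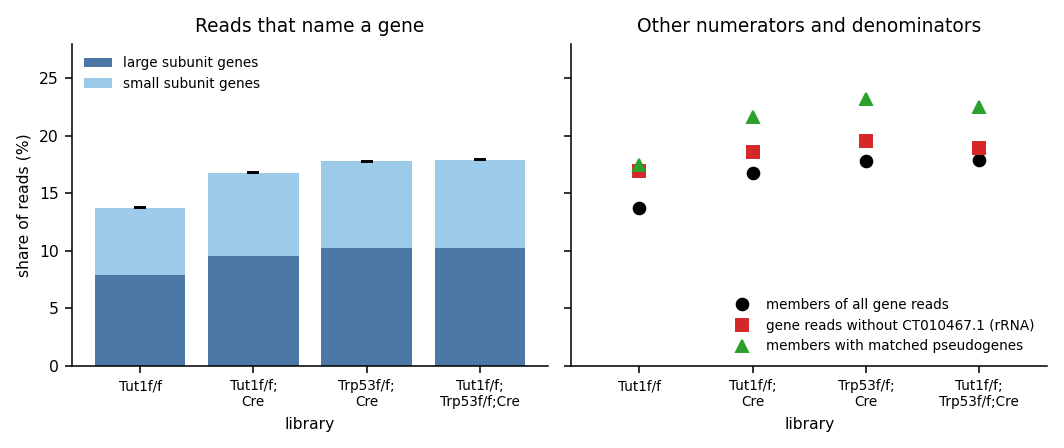
Share of gene reads from ribosomal protein genes in the 4 libraries, in percent, as stacked bars for the large and the small subunit, and, in a second panel, the same share (circles), that without the ribosomal RNA gene in the denominator (squares) and that with matched pseudogenes (triangles). The bars reach 13.8% in the control and 16.8 to 17.9% in the Cre libraries, and the distance is smaller without the ribosomal RNA gene (16.9% against 18.6 to 19.5%).

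Both subunits had their lowest share in the control. Large subunit genes held 7.89%, 9.56%, 10.2% and 10.2% of gene reads and small subunit genes 5.87%, 7.24%, 7.56% and 7.69%, in the same order of libraries. The log2 ratio of large to small subunit reads was 0.43, 0.40, 0.44 and 0.41. Against Tut1f/f, the median log2 ratio was 0.17 for the large and 0.25 for the small subunit in Tut1f/f;Cre, 0.35 for both in Trp53f/f;Cre, and 0.26 and 0.34 in Tut1f/f;Trp53f/f;Cre. Of Tut1f/f;Trp53f/f;Cre against Trp53f/f;Cre, the medians were 0.03 and 0.00.

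A gene was counted as different between 2 libraries when its scaled CPM differed by 2-fold or more and the exact interval of the ratio did not hold 1. By this rule, no ribosomal protein gene was higher in Tut1f/f;Cre than in Tut1f/f, where 12.7% of the 9882 genes were, and 2 were lower (Rps2 and Rps10), where 13.3% of all genes were. None was higher in Trp53f/f;Cre (12.5% of all genes) and 2 were lower, Rps2 and Rpl3 (15.3%). None was higher in Tut1f/f;Trp53f/f;Cre (10.3%) and 1 was lower, Rps2 (9.76%). None passed in either direction between Tut1f/f;Trp53f/f;Cre and Trp53f/f;Cre, where 4.68% of all genes were higher and 2.56% lower. Between Tut1f/f;Cre and Trp53f/f;Cre, only Rpl3 passed, higher in Tut1f/f;Cre (2.19% of all genes were higher and 1.16% lower). Few genes of this set reached 2-fold, in either direction, beside the shares over all genes.

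Smaller differences were common; these genes were read deeply, and counting intervals were narrow. With no fold requirement, the interval excluded no change upwards for 55 of the 79 genes and downwards for 19 in Tut1f/f;Cre (27% and 28.3% of all genes), for 54 and 16 in Trp53f/f;Cre (27.4% and 30.1%), and for 60 and 11 in Tut1f/f;Trp53f/f;Cre (24.1% and 24.9%). The median log2 ratio of the 79 genes was 0.20, 0.35 and 0.29 in these comparisons, against -0.01, -0.02 and -0.01 over all genes tested. All 3 share the control library and are set side by side for that reason. In Tut1f/f;Trp53f/f;Cre against Trp53f/f;Cre the median was 0.01, against 0.03 over all genes, with 27 genes higher and 31 lower by the interval alone (19.4% and 13.6% of all genes).

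**Figure D2:**
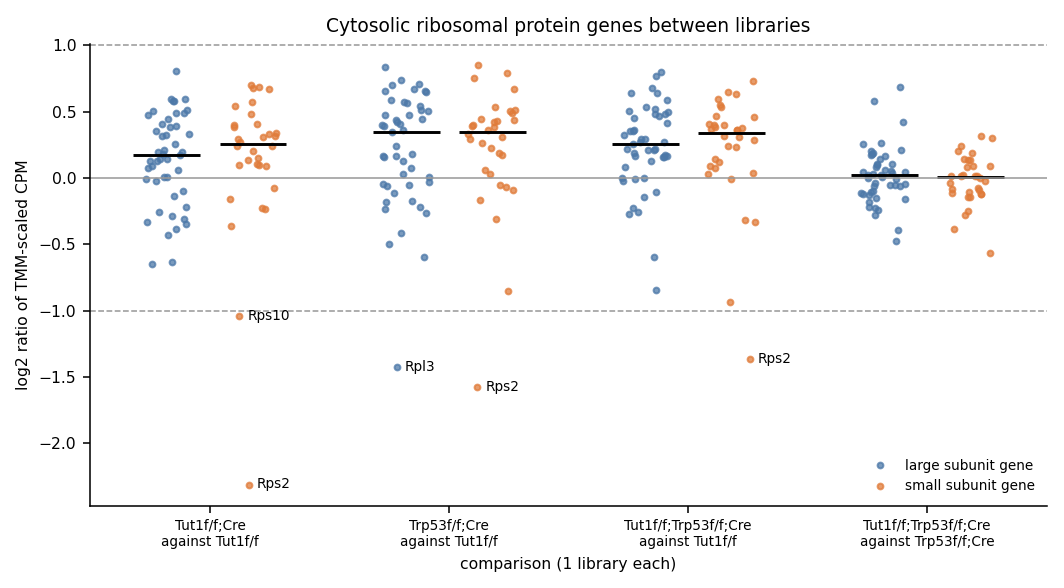
Log2 ratio of TMM-scaled CPM of each of the 79 genes in 4 comparisons of single libraries, large subunit (47 genes) and small subunit (32 genes) side by side, with a line at each median and dashed lines at 2-fold. Most points against Tut1f/f lie between 0 and 0.85, and Rps2, Rps10 and Rpl3 lie apart below; the points of the double-floxed against the Trp53f/f;Cre library lie around 0.

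Rps2, a protein of the mRNA entry channel of the small subunit (chr17:24718116-24721929), had the largest difference of all 79 genes. It had 11321, 1738, 3335 and 3254 reads, or 2847, 574, 957 and 1103 CPM. All 3 Cre libraries were lower than the control, and Tut1f/f;Cre was the lowest. On the log2 scale the 3 differed from it by -2.31 (-2.38 to -2.24), -1.57 (-1.63 to -1.52) and -1.37 (-1.42 to -1.31). Against Trp53f/f;Cre, the double-floxed library was at 0.20 (0.13 to 0.27). With its matched pseudogenes, which held 1179, 702, 997 and 443 reads, the ratios to Tut1f/f were -1.96, -1.34 and -1.33, still past 2-fold in every Cre library. By these sums Trp53f/f;Cre and the double-floxed library were nearly level, so the 0.20 between them holds for the gene's own reads only.

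Rps10, a protein of the small subunit's head (chr17:27630418-27636669), had 9344, 3466, 4525 and 3621 reads, or 2349, 1144, 1299 and 1227 CPM. Its log2 ratios against the control, -1.04 (-1.09 to -0.98), -0.86 (-0.91 to -0.80) and -0.94 (-0.99 to -0.88), put only Tut1f/f;Cre past 2-fold, with an interval that holds 2-fold itself, and the others just short of it. Its pseudogenes held at most 28 reads in a library.

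Rpl3 (chr15:80077791-80091868, minus strand) had 10994, 6566, 3595 and 4539 reads, or 2764, 2168, 1032 and 1538 CPM, and the 2 libraries with the Trp53 label were the lowest. The log2 ratios against the control were -0.35 (-0.39 to -0.31), -1.42 (-1.48 to -1.37) and -0.85 (-0.90 to -0.80). The pseudogene Rpl3-ps1 (chrX:13202571-13203780, plus strand), which differs from it by the bases shown above, had 823, 475, 4457 and 4753 reads, highest in the libraries where Rpl3 was lowest. Summed with its pseudogenes, Rpl3 was at -0.35 (-0.40 to -0.31), -0.36 (-0.40 to -0.32) and 0.09 (0.05 to 0.12) against Tut1f/f, and no longer reached 2-fold in any library. Whether a read came from the gene or from the copy was not tested, since the table does not hold the reads.

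Most members had such copies. In all, 359 annotated pseudogenes matched 73 of the 79 genes at 90% identity or more over at least 80% of their length, and they held 21.2%, 22.4%, 23.5% and 20.4% of the summed reads of genes and copies. In 7 genes (Rpl15, Rpl27, Rpl31, Rpl37a, Rps13, Rps26 and Rps29) the pseudogenes had more reads than the gene in every library. Rps29, a zinc-binding protein of the small subunit, had 3837, 4667, 5342 and 4301 reads, and its identical copy Gm14303 had 20804, 20957, 28525 and 19211. Rps13, which lies on the small subunit's platform, stood beside Rps13-ps2 with 9995, 8580, 11258 and 8511 reads. Rpl37a stood beside Gm4149 with 9138, 10116, 13390 and 9039.

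In Rpl6 and Rps26, among other members, the ratios of the sum with the copies differed from those of the gene alone. Like Rps13, Rps29 and Rpl37a above, Rpl6 was chosen as an example after its values had been seen. Rpl6 alone was at 0.01 (-0.04 to 0.05), -0.03 (-0.08 to 0.01) and 0.22 (0.18 to 0.26) against Tut1f/f, from 9426, 7218, 8065 and 8138 reads. Gm6136 had 2743, 7380, 8312 and 6237 reads, more than 2 times as many in each Cre library as in the control. Summed with its copies, Rpl6 was at 0.62 (0.59 to 0.65), 0.59 (0.55 to 0.62) and 0.63 (0.59 to 0.66). Rps26, near the mRNA exit channel, had only 917, 624, 774 and 540 reads of its own, 92.1% to 82.0% of them in 1 retained intron transcript, while Rps26-ps1 had 7381, 8715, 10637 and 8294. Alone it was at -0.16, -0.05 and -0.33, and with the pseudogene at 0.56, 0.65 and 0.52. With all matched pseudogenes added, the medians of the 79 genes against Tut1f/f were 0.21, 0.36 and 0.24, so the level of the whole set moved little.

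**Figure D3:**
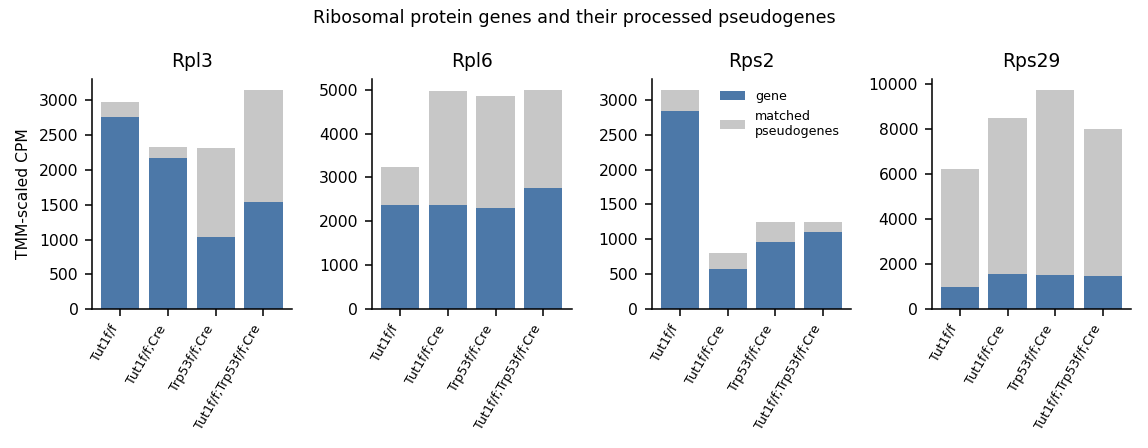
CPM of Rpl3, Rpl6, Rps2 and Rps29 in the 4 libraries as bars, with the CPM of their matched processed pseudogenes stacked on them. In Rpl3 the gene's part shrinks and the pseudogene's part grows in the 2 libraries with the Trp53 label (4457 and 4753 reads of Rpl3-ps1), in Rps29 most of each bar is pseudogene, and in Rps2 the whole bar is lower in every Cre library.

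The genes of the lateral stalk, which recruits and activates the translation factors that hydrolyse GTP, did not move as one. Rplp0, the stalk's base, had 10363, 6048, 6798 and 7699 reads and ratios to Tut1f/f of -0.38 (-0.43 to -0.34), -0.42 (-0.46 to -0.37) and 0.00 (-0.04 to 0.04). Rplp1 had 21391, 13602, 19094 and 13292 reads and ratios of -0.26 (-0.29 to -0.23), 0.03, with an interval that holds 0, and -0.26 (-0.29 to -0.22). Rplp2 had 801, 829, 1002 and 761 reads, and was higher in each Cre library, at 0.44 (0.30 to 0.58), 0.51 (0.38 to 0.65) and 0.36 (0.21 to 0.50). Rplp1 was lower in both libraries with the Tut1 label and Cre, with -0.28 (-0.31 to -0.25) between the double-floxed and Trp53f/f;Cre, whereas Rplp0 was at 0.42 (0.37 to 0.47) in that comparison. None of them reached 2-fold.

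Rpl5 and Rpl11, the partners of 5S ribosomal RNA that bind MDM2, stayed close to the control. Rpl5 (chr5:107900502-107909005) had 2488, 1531, 1856 and 1817 reads, with ratios of -0.31 (-0.40 to -0.22), -0.23 (-0.32 to -0.14) and -0.02 (-0.11 to 0.07). Rpl11 (chr4:136028265-136053428, minus strand) had 3686, 3209, 3822 and 3294 reads, with ratios of 0.19 (0.12 to 0.26), 0.24 (0.18 to 0.31) and 0.27 (0.20 to 0.34). Pseudogenes held 49.0 to 58.7% of the summed Rpl5 reads and 46.0 to 54.9% of those of Rpl11. Summed with its copies, Rpl5 had 5729, 3574, 4489 and 3562 reads. The Rpl5 ratio of -0.02 in the double-floxed library is for the gene's own reads, and by this sum that library was below the control. Mdm2, the ubiquitin ligase they bind and itself a p53 target, had 60, 29, 12 and 12 reads.

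The paralog pair Rps27 and Rps27l, the latter a known p53 target, differed in pattern. Rps27l had 6722, 8315, 6013 and 5421 reads, or 1690, 2745, 1726 and 1837 CPM, and stood out in 1 library, Tut1f/f;Cre, at 0.70 (0.65 to 0.75) against Tut1f/f. In the 2 libraries with the Trp53 label it was at 0.03 (-0.02 to 0.08) and 0.12 (0.07 to 0.17). Rps27 had 1123, 1360, 1776 and 1384 reads and was higher in all 3, at 0.67 (0.55 to 0.78), 0.85 (0.74 to 0.96) and 0.73 (0.62 to 0.85). In the double-floxed against the Tut1f/f;Cre library, Rps27l was at -0.58 (-0.63 to -0.53), the lowest ratio of the 79 genes, of which none reached 2-fold there (2.23% of all genes were higher and 2.27% lower by the rule). Rps27rt, an intronless relative, was the least read of the set, with 54, 61, 82 and 47 reads.

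Among the other genes above the control, Rpl35 stood highest. Rpl35, which lies at the exit of the peptide tunnel (chr2:39001580-39005624, minus strand), had 9550, 12736, 14935 and 12316 reads, or 2401, 4205, 4286 and 4174 CPM, with ratios of 0.81 (0.77 to 0.85), 0.84 (0.80 to 0.87) and 0.80 (0.76 to 0.84) and the 3 Cre libraries close to each other. Rpl41, which encodes the smallest ribosomal protein, had 3612, 4147, 4606 and 4173 reads and ratios of 0.59, 0.54 and 0.64. Rpl39, another small protein of the exit tunnel, was at 0.32, 0.65 and 0.26, and Rpl36a at 0.51, 0.71 and 0.47. Rps14, a small subunit gene known for its loss in a form of anaemia, was at 0.48, 0.51 and 0.54 from 11500, 12213, 14383 and 12375 reads. Rps19, mutated in Diamond-Blackfan anaemia, was at 0.09, 0.18 and 0.03 from 1458, 1182, 1443 and 1106 reads.

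Other genes lay near or below the control in at least 1 Cre library. Rpl4 (chr9:64173375-64178666; chosen after its values had been seen), whose protein lines the exit tunnel, had 8017, 4534, 4639 and 6301 reads and ratios of -0.43 (-0.48 to -0.38), -0.60 (-0.65 to -0.55) and 0.08 (0.04 to 0.13). The double-floxed library was higher than Trp53f/f;Cre by 0.68 (0.63 to 0.74), the largest ratio of any member in that comparison. Rpsa, also known as the laminin receptor, was at -0.23, -0.31 and -0.01, and Rps6, the phosphorylation target of the S6 kinases, at 0.10, 0.06 and 0.37. Rpl12, a protein of the stalk base, was at -0.33, -0.27 and -0.23, Rpl10a at 0.12, 0.16 and 0.21, and Rpl10 at -0.02, -0.05 and 0.13. These are ratios of the genes' own reads. With matched pseudogenes, Rpl12 had 5489, 3825, 4879 and 3442 reads, Rpl10a 12390, 9333, 11324 and 9050, and Rpl10 4177, 3059, 3533 and 3133. Over these sums, the ratios of each differed from those of the gene alone in at least 1 Cre library. Rpl22, an RNA-binding protein of the large subunit, was higher, at 0.26, 0.42 and 0.29. Rps27a, which encodes ubiquitin fused to a ribosomal protein, was at 0.38 (0.33 to 0.43), 0.45 (0.40 to 0.50) and 0.46 (0.41 to 0.51). Fau, which encodes a ribosomal protein fused to a ubiquitin-like protein and is left out of the set by its symbol, was at 0.22, 0.52 and 0.23.

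Transcript length moved with these ratios within the set. Over all tested genes the medians differed between length classes, with no single direction. The read-weighted length of the annotated transcripts had a median of 771 nt over the 79 genes (783 for the large and 692 for the small subunit) against 2317 nt over the 9171 tested genes with a known length. Spearman's rho of log2 ratio and length over the 79 genes was -0.58, -0.60 and -0.42 against Tut1f/f, and 0.52 between the double-floxed and Trp53f/f;Cre. These are descriptions over genes that share a library, not independent points. The 24 members under 600 nt had medians of 0.48, 0.55 and 0.49, beside 0.49, 0.50 and 0.38 over all 439 tested genes of that length. The 12 members of 1000 to 1500 nt had a median of -0.11 in Tut1f/f;Cre, beside -0.25 over the 1171 genes of that length. The 6 members of 1500 to 2000 nt had medians of -0.15, -0.16 and 0.09 against Tut1f/f. The 1317 tested genes of that length had -0.38, -0.45 and -0.23. Over all 9171 genes rho was 0.05, 0.04 and 0.01 against Tut1f/f, and -0.03 between the double-floxed and Trp53f/f;Cre. Genes of 4000 nt or more had a median of 0.24 in Tut1f/f;Cre. The part of length in the ratios was not tested.

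A fit over all 4 libraries with edgeR (quasi-likelihood test, Tut1 and Trp53 status as additive terms, Benjamini-Hochberg adjustment over 9882 genes) called no ribosomal protein gene for either term. For Tut1 status 1 of 79 members had an unadjusted p under 0.05, beside 187 genes overall (1.89%), of which 0 were called. That member was Rps2, with a log2 fold change of -1.05 (SE 0.41, edgeR p 0.00954), followed by Rps10 at -0.56 (SE 0.37, edgeR p 0.131) and Rpl35 at 0.38 (SE 0.34, edgeR p 0.254). For Trp53 status it was Rpl3 at -0.96 (SE 0.36, edgeR p 0.00852), followed by Rpl23a at 0.41 (SE 0.33, edgeR p 0.208) and Rpl35 at 0.41 (SE 0.34, edgeR p 0.221); 153 genes overall (1.55%) had a p under 0.05 and 1 (0.0101%) was called. With -ps pseudogenes added to their genes, no member had a p under 0.05 for Trp53 status. DESeq2 called no member either, and gave a p under 0.05 to 0 members for Tut1 status and 1 for Trp53 status. The fit has 1 residual degree of freedom.

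The control against the 3 Cre libraries was fitted as well, a comparison added after the data had been seen. It rests on the lone control library, which is assumed to vary like the other 3. edgeR called 1 member at an FDR under 0.05 with 2-fold, Rps2 at -1.70 (SE 0.26, FDR 0.00259), beside 1615 genes overall (16.3%). At an FDR under 0.05 of any size, 13 members were higher and 3 lower (19.7% of all genes passed): among them were Rps10 at -0.94 (SE 0.16, FDR 0.004) and Rpl35 at 0.81 (SE 0.16, FDR 0.00647). Genotype, Cre mRNA and library cannot be told apart in this contrast.

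Other genes of ribosome making and translation gave the surroundings of these values. Of 30 ribosome assembly factors, 0 were higher and 5, 6 and 2 were lower than in Tut1f/f in the 3 Cre libraries by the 2-fold rule, with medians of -0.29, -0.29 and 0.02. The lower ones were 16.7%, 20% and 6.67% of the list, near the 13.3%, 15.3% and 9.76% of all genes. Bop1, which acts in processing of large subunit RNA with Pes1, had 157, 5, 8 and 12 reads, and Nop2, an RNA methyltransferase, had 176, 34, 38 and 59. Between the double-floxed and Trp53f/f;Cre libraries, 4 factors were higher (13.3%, beside 4.68% of all genes). Of 15 further mRNAs known to carry the TOP motif, most of them of the translation machinery and Fau among them, 1 was higher in each Cre library (6.67%, beside 12.7%, 12.5% and 10.3% of all genes) and 5, 5 and 2 were lower (33.3%, 33.3% and 13.3%, beside 13.3%, 15.3% and 9.76%), with medians of -0.27, -0.44 and -0.08. Tpt1 had 15168, 2210, 3205 and 2705 reads and the elongation factor gene Eef1a1 had 26067, 8203, 7319 and 11116. Eif3f, an initiation factor gene, was the one higher, from 70, 269, 331 and 199 reads. Among 7 regulators with reads, Myc had 594, 237, 350 and 246, and 0 were higher and 0, 1 and 1 lower by the rule, the lower one being Mdm2.

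Isoform usage, the percentage of a gene's reads in an isoform, was the study's question and was compared between libraries with Fisher's two-sided exact test (FDR under 0.05 over all isoforms, and at least 10 percentage points), which compares the reads of 2 libraries and not the conditions. Of 603 member isoforms tested in Tut1f/f;Cre against Tut1f/f, 1 was called, beside 8.58% of all 18518 isoforms. Of 611 in Trp53f/f;Cre, 0 were called (9.03% of all), of 609 in Tut1f/f;Trp53f/f;Cre 1 (6.44%), and of 595 in Tut1f/f;Trp53f/f;Cre against Trp53f/f;Cre 1 (1.22%). Depth differs between members and other genes and was not matched. Among genes with at least 1000 reads in each library, 0.197 to 1.81% of other genes' isoforms were called in these comparisons, and 1, 0, 0 and 1 of 577 to 591 member isoforms. The median size of a usage difference there was 0.15 to 0.19 points in members and 0.31 to 0.39 points in others.

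The isoforms that were called were these. The coding Rps2 transcript ENSMUST00000170715 took 72.0% (8150 of 11321 reads), 60.8%, 65.0% and 70.7% of Rps2 reads, 11.2 points lower in Tut1f/f;Cre than in Tut1f/f (Fisher's exact test, FDR 3.8e-18). The retained intron transcript of Rps26, ENSMUST00000219591, took 92.1%, 88.3%, 87.9% and 82.0%, 10.1 points lower in Tut1f/f;Trp53f/f;Cre (exact test, FDR 1.1e-06). The coding Rpl28 transcript ENSMUST00000078432 (chr7:4792990-4794526, 4 exons, 772 nt) took 13.6% (12.6 to 14.7%), 19.6% (18.4 to 20.9%), 12.3% (11.4 to 13.2%) and 22.4% (21.1 to 23.7%), 10.1 points higher in Tut1f/f;Trp53f/f;Cre than in Trp53f/f;Cre (exact test, FDR 9.9e-33) and 5.99 points higher in Tut1f/f;Cre than in Tut1f/f (FDR 4.8e-11). These shares are over the gene's own reads. Over the gene plus its matched pseudogenes, a count added after seeing the data, the Rps2 transcript took 65.2%, 43.3%, 50.02% and 62.2%, that of Rps26 10.2%, 5.90%, 5.96% and 5.01%, and that of Rpl28 11.7%, 17.2%, 10.8% and 20.5%, so the differences called for Rps26 and Rpl28 came to less than 10 points. Rpl28 itself, a large subunit protein gene whose promoter window is shown above, had 4457, 3749, 4968 and 4050 reads. The intervals of the isoform overlap between the control and Trp53f/f;Cre, and lie higher in Tut1f/f;Cre and higher still in the double-floxed library.

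At an FDR under 0.05 of any size, 16.4%, 19.0%, 15.9% and 7.56% of member isoforms passed, beside 13.9%, 14.8%, 10.8% and 2.44% of all isoforms, most of which were read less deeply. The comparisons by Tut1 label without and with the Trp53 label share no library. Of 569 member isoforms tested in both, 26 passed in both, 15 of them (in 11 genes) in the same direction and 11 in opposite directions. Over all 15769 isoforms, 227 passed in both, 78 in the same direction and 149 in opposite ones. The following isoforms, besides that of Rpl28, were chosen for their shared direction after the values had been seen, and are given as values only. Rpl41 transcript ENSMUST00000177163 took 43.7%, 46.9%, 39.9% and 49.3% of reads, and its other main transcript ENSMUST00000176683 took 43.4%, 39.4%, 46.4% and 37.9%. Rpl30 transcript ENSMUST00000079735 took 57.3%, 51.7%, 58.7% and 52.8%. Rpl10 transcript ENSMUST00000008826 took 65.4%, 60.3%, 65.9% and 60.9%, Rps25 transcript ENSMUST00000216867 took 18.2%, 25.3%, 19.9% and 23.4%, and the retained intron transcript of Rpl23a ENSMUST00000127270 took 13.2%, 15.2%, 13.4% and 15.2%. The retained intron transcript of Rpl5 ENSMUST00000151767 took 3.22%, 1.37%, 2.59% and 1.10%, lower in both libraries with the Tut1 label and Cre. Over gene and matched pseudogenes, the Rpl10 transcript took 51.4%, 48.4%, 51.7% and 51.6%, with the low value in Tut1f/f;Cre alone. The Rpl30 transcript took 47.7%, 43.6%, 48.5% and 45.5%, with intervals that overlapped in both comparisons by Tut1 label. The intervals of the Rps25 and Rpl23a transcripts lay apart in both. In the edgeR fit of usage (diffSpliceDGE) over all 4 libraries, none of 688 member isoforms and none of 21738 in all was called for either term, and 5 members for each term had an unadjusted p under 0.05, beside 222 (1.02%) for Tut1 and 153 (0.704%) for Trp53 status. Of the 15 member isoforms with a shared direction, 1 had such a p for Tut1 status, beside 15 of the 78 over all isoforms.

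**Figure D4:**
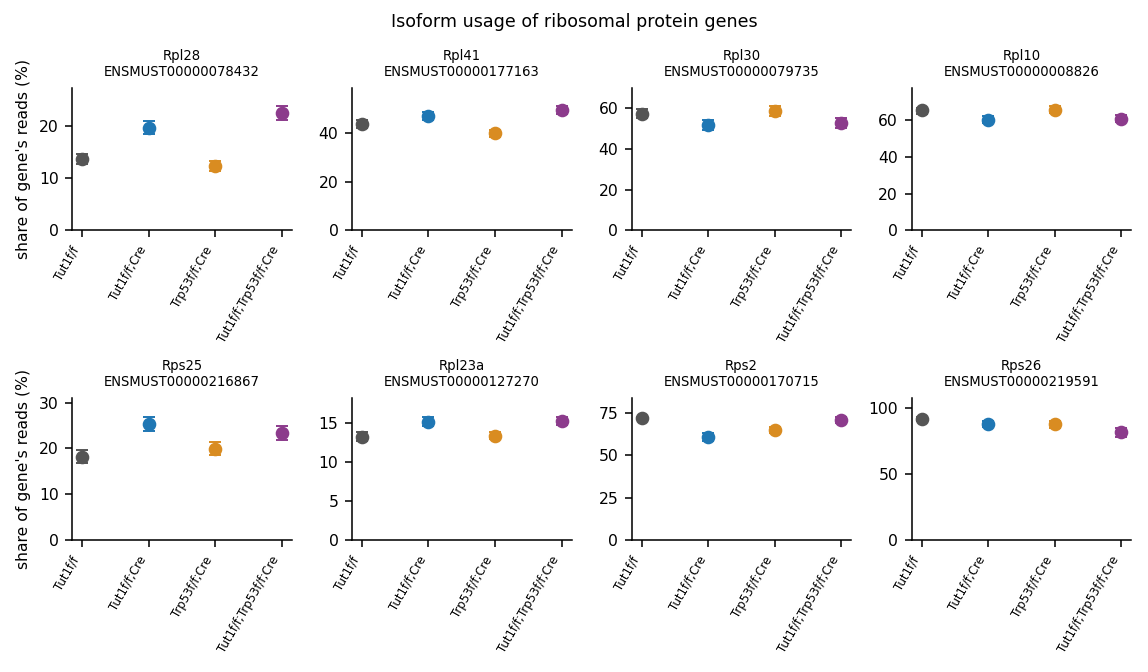
Percent of the gene's reads in 8 isoforms of ribosomal protein genes in each of the 4 libraries, with Wilson 95% intervals for counting error. The Rpl28 isoform sits at 12.3 to 13.6% in Tut1f/f and Trp53f/f;Cre and at 19.6 to 22.4% in both libraries with Tut1f/f and Cre in the label; Rps2 and Rps26 follow no such division.

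Ribosomal protein genes are known for unproductive splicing, where a transcript with a premature stop or a retained intron limits the gene's own output. Reads in transcripts annotated as not coding (retained intron, nonsense-mediated decay or processed transcript) were 2.83% (2.79 to 2.88%), 2.92% (2.88 to 2.97%), 2.74% (2.70 to 2.78%) and 2.84% (2.80 to 2.89%) of member reads. In the other protein-coding genes they were 1.97%, 3.10%, 2.94% and 2.84%. Retained intron transcripts alone took 1.36%, 1.41%, 1.33% and 1.37% of member reads, beside 1.17%, 2.10%, 1.97% and 1.88% in other genes. The members' share ranged from 2.74 to 2.92%, while that of other genes was lowest in the control; this difference was not tested.

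The share differed widely between genes. In Rpl12, whose unproductive splicing is well known, nonsense-mediated decay transcripts took 14.4%, 15.0%, 14.8% and 15.4% of the gene's own reads, with overlapping intervals. Over Rpl12 and its matched pseudogenes, a denominator added after seeing the data, the same reads were 8.96% (8.24 to 9.75%), 8.10% (7.28 to 9.01%), 7.52% (6.81 to 8.296%) and 9.70% (8.76 to 10.7%), and the intervals of Trp53f/f;Cre and the double-floxed library lay apart. Rpl3, known for the same, had retained intron transcripts at 0.6003% (0.472 to 0.763%), 1.31% (1.06 to 1.61%), 2.34% (1.89 to 2.88%) and 1.37% (1.07 to 1.75%), from 66, 86, 84 and 62 reads. The number of these reads changed less than that of Rpl3 reads, the denominator (10994, 6566, 3595 and 4539), while Rpl3-ps1 had 823, 475, 4457 and 4753. Over Rpl3 and its copies the shares were 0.558% (0.439 to 0.7098%), 1.22% (0.990 to 1.505%), 1.04% (0.841 to 1.29%) and 0.666% (0.5203 to 0.853%), and the interval of the double-floxed library overlapped that of the control. Rpl10a, also known for it, had retained intron transcripts at 15.7% in Tut1f/f and 12.4%, 12.2% and 11.4% in the Cre libraries, and over gene and copies at 8.04%, 6.95%, 6.63% and 6.88%. Rpl5 had them at 4.62% (3.86 to 5.52%), 2.74% (2.04 to 3.69%), 4.31% (3.48 to 5.33%) and 2.15% (1.57 to 2.92%), and over gene and copies at 2.01%, 1.18%, 1.78% and 1.09%.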

How the data were processed

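The authors deposited 1 table of isoforms with whole-number read counts per library, from total RNA of 4 cultures sequenced with a Nanopore cDNA-PCR kit. The submitters' processing notes name mm10; the study's methods name minimap2 and FLAIR for its pallium libraries, and for this table the aligner and isoform caller are not given in the sources used here. Counts of isoforms naming an Ensembl gene were summed per gene, and the others were used only as a share. Symbols and biotypes came from GENCODE M21 (GRCm38).

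TMM factors and gene fits used edgeR 4.0.16 in R 4.3.3 (glmQLFit, default filter on low counts), with DESeq2 1.42.0 as the alternative. Ratios carry exact conditional binomial 95% intervals and shares Wilson intervals; list medians use a pseudocount of 0.5 CPM. Usage was tested for isoforms with at least 10 reads over both libraries, in genes with at least 20 in each. Pseudogenes were matched with blastn 2.17.0. The fits were tested on simulated data.

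Members named by rule were those of known special roles, those past the ratio rule (at 10 CPM or more in a library), the 3 with the smallest p per term, and isoforms past the usage rule. Members and lists were chosen with earlier results of these data known. Handling of multiple matches and strand was not given, so reads of copies and overlapping genes are uncertain. Some results are not reported here.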

Additional observations from a re-analysis of the deposited data

Results flagged for a closer look

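Genes of ribosomal proteins or their near relatives that the choice of symbols left out nevertheless held many reads. Rps3a1, the mouse gene of a small subunit protein, held 53429 reads over the 4 libraries (16137, 11203, 13127 and 12962), with log2 ratios to Tut1f/f of -0.13, -0.11 and 0.11. Rpl22l1, the paralog of Rpl22, held 23205 reads (5656, 5425, 7096 and 5028), with ratios of 0.33, 0.52 and 0.26, beside 0.26, 0.42 and 0.29 for Rpl22. Rpl7l1, which is related to Rpl7, held 2648 reads (854, 545, 600 and 649). With Rps3a1 added, the medians of the set were 0.20, 0.34 and 0.28.

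In 3 members the log2 ratio by Tut1 label had opposite signs without and with the Trp53 label, with intervals that exclude no change in both and a gap of at least 2-fold; the difference itself was not tested. Rpl4 was at -0.43 in Tut1f/f;Cre against Tut1f/f and at 0.68 in Tut1f/f;Trp53f/f;Cre against Trp53f/f;Cre. Rps2 was at -2.31 and 0.20. With its matched pseudogenes, Rps2 had 4332 reads in Trp53f/f;Cre and 3697 in the double-floxed library, which were nearly level after scaling. Its opposite sign therefore holds for the gene's own reads only. Rps27rt was at 0.57 and -0.56, from at most 82 reads in a library. Of the 79 members, 34 had opposite signs and 20 the same sign with intervals that excluded no change in both comparisons, beside 1641 and 562 of the 9882 genes tested by the same limits, and 1270 of these genes had opposite signs with such a gap. The comparison without the Trp53 label has the only library without Cre mRNA as its control, and the other does not, so Tut1 label and Cre mRNA cannot be told apart in it.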

How the results depend on the processing

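No paired analysis was possible because each group had 1 library, and for the same reason no replicate could be left out. Across the results that answer a comparison, 93 alternative values stayed within the set limit and 45 moved (22 and 15 for alternatives chosen after seeing the data), and none changed sign as a called value. The count of members past 2-fold, in either direction, was 2, 2, 1 and 0 in the 4 comparisons (3 against Tut1f/f, then the double-floxed against Trp53f/f;Cre). It became 11, 17, 14 and 1 at 1.5-fold (13.9%, 21.5%, 17.7% and 1.27% of members, beside 42.2%, 44.2%, 34.96% and 18.3% of all genes) and 74, 70, 71 and 58 with no fold requirement (beside 55.3%, 57.5%, 49.05% and 33.0% of all genes); 1 in Tut1f/f;Cre with library totals in place of TMM; 1 in Trp53f/f;Cre with -ps or matched pseudogenes (Rpl3 left); and 2 in the double-floxed with coding transcripts only. Library totals moved the median of all genes by 0.12, 0.11 and 0.13 against Tut1f/f and that of members to 0.32, 0.46 and 0.43, 0.21, 0.37 and 0.31 above all genes. With matched pseudogenes the median of the double-floxed against Trp53f/f;Cre was -0.062. The large minus small subunit median in Trp53f/f;Cre went from 0.00 to -0.11 with coding transcripts only. Shares of gene reads, in the order of libraries used above, were 11.4%, 11.7%, 12.6% and 13.04% over all reads, 16.9%, 18.6%, 19.5% and 19.0% without CT010467.1, 15.7%, 19.1%, 20.4% and 20.3% with -ps pseudogenes, 17.5%, 21.6%, 23.2% and 22.5% with matched pseudogenes, and 14.1%, 17.2%, 18.2% and 18.4% with Rps3a1. The control against all Cre libraries called 1 member. Member isoforms called (1, 0, 1 and 1) became 10, 10, 12 and 7 at 5 points, beside 11.1%, 11.5%, 8.39% and 1.75% of all isoforms, and 0 in every comparison at 20 points; without isoforms named by a read they were 2, 2, 0 and 1. The share annotated as not coding was 4.47%, 4.21%, 4.09% and 4.08% as a mean over genes, 3.35%, 3.43%, 3.196% and 3.33% of plain transcripts, and 2.23%, 2.27%, 2.10% and 2.26% with matched pseudogenes in the denominator. Whether the moves at other fold or point limits have a cause beyond the limit was not tested. Depth limits Rps27rt most, with 47 to 82 reads.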
